A study of Mus musculus with 4 samples.

Results

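Hox genes encode homeodomain transcription factors that give the cells of the trunk and limbs their position along the head-to-tail axis. They lie in 4 clusters, Hoxa to Hoxd, and members with the same number form a paralog group. Low numbers are used towards the head and high numbers towards the tail and the ends of the limbs. Fibroblasts and other connective tissue cells of adults keep the pattern of the place they came from, also in culture. The genes described here are the 38 Hox genes of a fixed list taken from the series' table by the symbol in each amplicon's name. Of these, 30 had a row among the 23930 genes of the table, and the other 8 (Hoxa2, Hoxa5, Hoxa11, Hoxb5, Hoxc10, Hoxd3, Hoxd10 and Hoxd11) were not analysed here.

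The cells were primary progenitors from subcutaneous tissue of C57BL/6 mice whose Gnas gene carries flox sites. Gnas encodes the stimulatory G protein alpha subunit, which raises cyclic AMP. Control cells received an adenovirus with green fluorescent protein (Ad-GFP, genotype wild type) and mutant cells one with Cre recombinase (Ad-Cre, genotype Gnas-/-). All cells then spent 7 days in osteogenic medium. Each group had 2 libraries, and every set of 4 values lists control 1 first, then control 2, mutant 1 and mutant 2. The labels give neither the age or sex of the mice nor the body site of the tissue, and they do not say whether libraries came from separate animals or cultures. The p-values therefore measure only the spread between these libraries, which in the mutants may be technical. Control 1 had 3036 reads of the female-specific Xist and control 2 had 0, so the controls were not 2 libraries of the same RNA. Gnas itself was not analysed here, so its level did not serve to check the genotype labels. The effect of the Cre virus cannot be told apart from that of Gnas loss.

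Each gene was read through 1 amplicon, and levels are in RPM, a library's reads scaled to a common total. The libraries held 13483518 to 18455811 reads, so that a value of 0 allows 0.163 to 0.222 RPM (3 reads), for counting error only. Amplicons differ in efficiency, so values of different genes are levels of their amplicons and not of their transcripts. Of 9 fibroblast markers with a row, all had reads in each library, with summed levels of 13015, 17803, 30527 and 34128 RPM, as the label of connective tissue progenitors calls for. Control 2 stood apart in its macrophage markers (8 genes, summed levels of 47.1, 932, 29.8 and 16.4 RPM), of which Lyz2 alone made up 822 RPM there. The sum of 5 endothelial markers was also highest in control 2 (9.97, 84.8, 18.3 and 36.6 RPM), through Pecam1, Cdh5 and Emcn. The other members went other ways: Kdr was lowest in control 2 (2.49, 0.89, 1.26 and 2.56 RPM) and Tek highest in mutant 2 (4.01, 4.38, 5.61 and 12.2 RPM). Sex-linked genes differed too: Xist stood at 165, 0, 395 and 419 RPM and the Y-linked Ddx3y at 61.4, 124, 26.9 and 12.5 RPM. Control 2 thus had Y-linked reads without Xist, whereas the other libraries had both. All 4 Y-linked genes of the list were lower in both mutants than in both controls, so the mix of sexes differed between the groups as well. Of 6 skeletal muscle markers Myod1, Pax7 and Ckm were at 0 throughout and Myog had at most 1 read, whereas Myf5 had 16, 6, 4 and 5 reads and Des stood at 51, 24.9, 17.2 and 61.2 RPM. Of 4 keratinocyte markers Krt5 was at 0 throughout, and the 4 summed to no more than 0.741 RPM in any library. The part of these differences in the Hox values was not tested, and in such bulk RNA fewer cells of a type and less RNA per cell cannot be told apart.

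Listed genes of all 4 clusters were in use, and the set of those expressed was much the same in controls and mutants. At 1 RPM or more stood 19, 19, 18 and 20 of the 30 genes. In all 4 libraries at that level were 16 genes: Hoxa6, Hoxa7, Hoxa9 and Hoxa10, then Hoxb2, Hoxb3, Hoxb4, Hoxb6, Hoxb7, Hoxb8 and Hoxb9, then Hoxc4, Hoxc6 and Hoxc8, and last Hoxd4 and Hoxd8. Another 6 reached 1 RPM in some libraries only (Hoxc5, Hoxc9, Hoxc11, Hoxc12, Hoxc13 and Hoxd9). No read was found in any library for 5 genes, which were Hoxb1 and Hoxd1 at the head end of their clusters and Hoxa13, Hoxb13 and Hoxd12 at the tail end. The summed level of the 30 amplicons was 482, 341, 426 and 387 RPM.

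**Figure D1:**
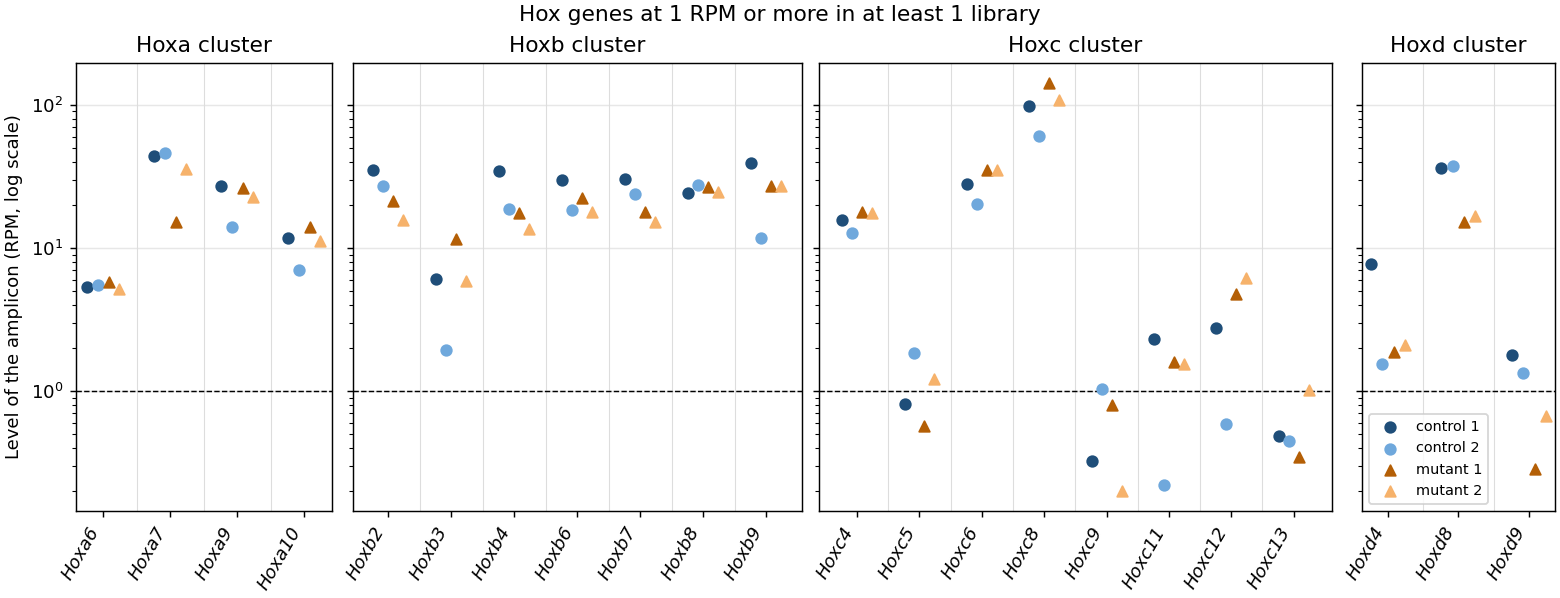
Level of each Hox amplicon in RPM (log axis) for the 22 genes at 1 RPM or more in at least 1 library, by cluster and in order of paralog number; each point is 1 library, with no error bar, and the dashed line is 1 RPM. Hoxc8 is the highest amplicon in every library, and the 2 mutants lie below the 2 controls at Hoxd8.

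By paralog group, group 8 held the largest summed level in every library, at 158, 125, 183 and 150 RPM. Groups 2, 4, 6, 7 and 9 followed with sums between 15.8 RPM (group 2 in mutant 2) and 74.5 RPM (group 7 in control 1). Group 10 was read through Hoxa10 alone, at 11.8, 6.97, 14 and 11.2 RPM. Hoxb1 and Hoxd1 had no read, and the 4 members of group 13, at the tail end of the code, summed to 0.596, 0.667, 0.344 and 1.01 RPM.

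No Hox gene passed the threshold between mutants and controls. Of the 20 with at least 1 RPM in 2 libraries, 0 rose and 0 fell (limma on log2(RPM + 1), adjusted p below 0.05 over all 11638 genes tested). The background was 1.73% of all tested genes higher and 0.576% lower. At an unadjusted p below 0.05 stood 2 Hox genes, Hoxd8 and Hoxc12, against 17.9% of all genes. The count test edgeR on the whole reads also called 0, where 0.567% of all genes were higher and 0.232% lower. At an unadjusted p below 0.05 edgeR had 3 Hox genes and 2022 of the 11638 genes tested. DESeq2 called 1, Hoxd8 as lower, where 5.14% of all genes were higher and 4.24% lower. Without control 1 there were 4 calls higher (Hoxb3, Hoxb9, Hoxc8 and Hoxc12) and 1 lower (Hoxd8), where 15.2% and 7.23% of all genes were called. Without control 2 there were 0 higher and 3 lower (Hoxb4, Hoxd4 and Hoxd8), against 10.4% and 7.51%. Without mutant 1 or without mutant 2 limma called no gene of the table (689 and 670 at an unadjusted p below 0.05, 0 and 2 of them Hox genes). In each of these fits the lone library is taken to vary like the group that still has 2. The log2 fold change was positive in 10 and negative in 10 of the 20 genes, with a median of 0.00 against 0.08 over all genes tested. A p that misses the threshold does not show that levels were equal: the 95% intervals were as wide as -2.28 to 0.96 at Hoxd4.

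**Figure D2:**
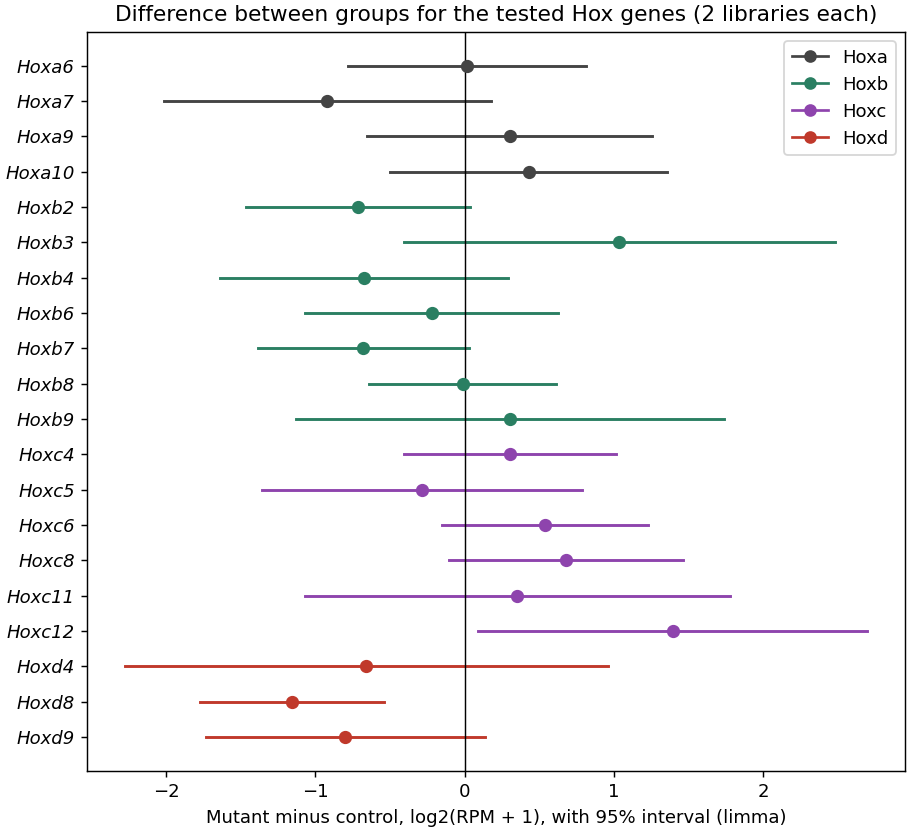
Difference between mutant and control means on the log2(RPM + 1) scale for the 20 tested Hox genes (points, limma, 2 libraries per group) with 95% intervals (bars), coloured by cluster. The intervals of Hoxd8 (-1.77 to -0.54) and Hoxc12 (0.09 to 2.70) do not reach 0. All 3 Hoxd points lie left of 0 and 5 of 6 Hoxc points right of it. Hoxd9 passed the filter only through the controls, which fixed its side.

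Single clusters leaned different ways. In 4 of the 20 tested genes, all of the Hoxc cluster, both mutants lay above both controls, while 30.6% of all tested genes did. In 6 of the 20 (Hoxa7, Hoxb2, Hoxb4, Hoxb7, Hoxd8 and Hoxd9) both mutants lay below both controls, while 21.1% of all tested genes did. Hoxd9 passed the filter only through the controls, so it could lie on this side only. The median log2 fold change was 0.16 for the 4 tested Hoxa genes, -0.22 for 7 Hoxb genes, 0.44 for 6 Hoxc genes and -0.80 for 3 Hoxd genes. The Hoxd median is the value of Hoxd9 itself. These medians are descriptions, and their difference was not tested. With 1 library left out, the Hoxa median ran from -0.056 (without control 2) to 0.37 (without control 1), so that its sign depends on the controls. The Hoxb median ran from -0.55 (without control 2) to -0.066 (without mutant 2). The Hoxc median ran from 0.30 (without control 2, over 5 genes) to 0.90 (without control 1, over 6). The Hoxd median ran from -1.34 (without control 2) to -0.47 (without control 1), but Hoxd9 was not tested in these fits, which leave 2 genes. Over all 3 genes it was -0.61 without mutant 1 (the value of Hoxd4) and -0.99 without mutant 2 (that of Hoxd9). It was -0.38 with a pseudocount of 5, which is the value of Hoxd4. In edgeR it was -1.28 and in DESeq2 -1.29, both the value of Hoxd8. These 2 tools use whole reads and not log2(RPM + 1), so their values are on another scale.

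The Hoxd cluster on chromosome 2 held the difference nearest to the threshold. Hoxd8, which acts in the trunk, stood at 36.2, 37.2, 15.2 and 16.6 RPM. Both controls were above both mutants by more than the spread within either group, with means of 36.7 ± 0.68 and 15.9 ± 0.99 RPM (SD, n = 2 libraries each). Controls stood 2.30-fold above mutants in mean RPM, and the log2 fold change was -1.15 (SE 0.24, 95% interval -1.77 to -0.54, limma adjusted p = 0.0958). Hoxd8 passed the threshold in DESeq2 (adjusted p = 0.0019) and in limma without control 1 (0.0151) or control 2 (0.0185). Over 13 alternatives the adjusted p ran from 0.0019 to 0.827, the latter without mutant 1, and the log2 fold change from -1.29 to -0.99.

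Its neighbour Hoxd9 was low throughout, at 1.79, 1.33, 0.286 and 0.673 RPM, or 33, 18, 5 and 10 reads. Both mutants lay below both controls (log2 fold change -0.80 with SE 0.37, adjusted p = 0.342). Hoxd9 reached 1 RPM only in the controls, so the filter fixed this direction in advance. Its direction therefore adds nothing to that of Hoxd8. Hoxd4, a group 4 gene, stood at 7.69, 1.56, 1.89 and 2.09 RPM. Control 1 alone was high and the groups overlapped (a log2 fold change of -0.66, adjusted p = 0.638). Without control 2 the Hoxd4 value was -1.54 (adjusted p = 0.0257) and without control 1 it was 0.22 (adjusted p = 0.728). At the tail end Hoxd12 had no read, and Hoxd13, a gene of the digits and the genital and urinary tract, had 0.108 and 0.222 RPM in the controls (2 and 3 reads) and none in the mutants. With so few reads its groups cannot be compared. Hoxd1, at the other end, was at 0.

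The start regions of the 3 tested Hoxd genes are shown because these genes carry the lowest cluster median. That median is the value of Hoxd9, whose direction was fixed by the filter. They come from RefSeq (GRCm38.p6, plus strand), from 250 bases before to 50 bases after the start of the gene, and 16 of the 30 Hox genes had such a window. Where in each transcript its amplicon lies is not given here. Capitals mark the short cyclic AMP response motif TGACG, bound by CREB-type factors, or the TATA motif TATAAA, on either strand. The windows are chr2:74704365-74704664 for Hoxd8, chr2:74697513-74697812 for Hoxd9 and chr2:74721728-74722027 for Hoxd4.
Hoxd8: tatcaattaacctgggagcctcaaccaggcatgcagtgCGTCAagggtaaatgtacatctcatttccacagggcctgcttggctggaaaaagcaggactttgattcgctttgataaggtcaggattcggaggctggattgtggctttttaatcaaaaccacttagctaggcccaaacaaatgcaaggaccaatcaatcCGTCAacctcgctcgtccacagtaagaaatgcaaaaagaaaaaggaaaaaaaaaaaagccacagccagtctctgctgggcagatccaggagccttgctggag
Hoxd9: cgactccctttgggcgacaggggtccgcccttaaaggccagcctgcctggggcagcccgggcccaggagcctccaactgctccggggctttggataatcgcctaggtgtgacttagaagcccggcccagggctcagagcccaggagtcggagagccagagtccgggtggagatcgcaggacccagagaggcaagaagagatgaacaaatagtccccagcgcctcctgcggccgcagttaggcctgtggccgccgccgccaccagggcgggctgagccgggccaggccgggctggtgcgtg
Hoxd4: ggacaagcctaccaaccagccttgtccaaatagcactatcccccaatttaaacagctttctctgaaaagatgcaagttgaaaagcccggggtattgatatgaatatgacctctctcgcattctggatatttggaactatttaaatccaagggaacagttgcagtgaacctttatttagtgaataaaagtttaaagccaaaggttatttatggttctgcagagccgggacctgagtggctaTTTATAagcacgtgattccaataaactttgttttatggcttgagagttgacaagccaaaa

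Hoxd8 held 2 copies of TGACG, which 20.8% of 32851 RefSeq windows of the same length hold at least once. The share with 2 copies was not counted. Hoxd4 held 1 TATA motif, found in 13.6% of windows, and Hoxd9 held neither. The full cyclic AMP response element TGACGTCA (which contains TGACG; 1.79% of windows), the Gli motif GACCACCCA (0.253%), the Hox-Pbx motif TGATNNAT (8.85%) and the homeodomain core TAATTA (5.29%), searched on both strands, were in none of the 3. Base composition differed among them, with 46.7% G and C in Hoxd8, 68.3% in Hoxd9 and 39.7% in Hoxd4, against a median of 52.7% over all windows. Outside the Hoxd cluster, the windows of Hoxa6 and Hoxb1 held 1 copy of TGACG each. Hoxa6 had a log2 fold change of 0.02 and Hoxb1 had no read. A match of letters is a description of these windows only.

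In the Hoxc cluster of chromosome 15, the 4 genes Hoxc4, Hoxc6, Hoxc8 and Hoxc12 stood higher in both mutants, without passing the test. Hoxc8, which patterns the thorax, was the highest Hox amplicon in every library, at 98.1, 60.5, 141 and 109 RPM. Mutants lay above controls, with means of 125 ± 22.8 and 79.3 ± 26.6 RPM (SD, n = 2 each), a 1.58-fold ratio (log2 fold change 0.68 with SE 0.31, adjusted p = 0.335). Without control 1 the value was 1.02 (adjusted p = 0.015), and without control 2 it was 0.34 (adjusted p = 0.354). Hoxc6, a gene of the upper thorax, stood at 28.2, 20.2, 34.8 and 35.3 RPM, a 1.45-fold ratio (adjusted p = 0.38). Hoxc4, of the neck and upper thorax, stood at 15.8, 12.8, 18 and 17.5 RPM, a 1.24-fold ratio (adjusted p = 0.619). In both genes the mutants were nearly equal and the controls spread more.

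Of the tail-end Hoxc genes, Hoxc12 stood at 2.76, 0.593, 4.75 and 6.2 RPM. Its log2 fold change was 1.39 (SE 0.51, 95% interval 0.09 to 2.70, unadjusted p = 0.0402, limma adjusted p = 0.255), 2.01 without control 1 (adjusted p = 0.00906) and 0.77 without control 2 (adjusted p = 0.204). Hoxc11, beside it, stood at 2.33, 0.222, 1.6 and 1.55 RPM, low in control 2 alone (a log2 fold change of 0.35, adjusted p = 0.786; -0.37 without control 2). The other Hoxc members were low: Hoxc5 reached 1.85 RPM, Hoxc9 1.04 RPM and Hoxc13 1.01 RPM at most. In none of these 3 did the groups separate.

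Hoxb genes of chromosome 11 made up the largest cluster sum in the controls, 199 and 129 RPM against 145 and 120 RPM in the mutants. Hoxb2, a gene of the hindbrain and neck region, stood at 35, 27, 21.3 and 15.8 RPM (log2 fold change -0.72 with SE 0.30, adjusted p = 0.297). Hoxb7, a gene of the thorax, stood at 30.4, 24, 18 and 15.1 RPM (log2 fold change -0.68 with SE 0.28, adjusted p = 0.294). Hoxb4, also known for its use in blood stem cells, stood at 34.4, 18.6, 17.6 and 13.7 RPM (a log2 fold change of -0.67, adjusted p = 0.423). In these 3 genes both controls lay above both mutants, though control 2 and mutant 1 nearly met at Hoxb4. The Hoxb4 value was -1.10 without control 2 (adjusted p = 0.0287) and -0.25 without control 1 (adjusted p = 0.576).

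Further members of the cluster overlapped between groups. Hoxb8, a trunk gene, varied little, at 24.2, 27.7, 26.8 and 24.6 RPM (a log2 fold change of -0.01, 95% interval -0.64 to 0.61, adjusted p = 0.987). Hoxb6 stood at 29.8, 18.5, 22.4 and 17.8 RPM (a log2 fold change of -0.22, adjusted p = 0.773). Hoxb9, the most tailward Hoxb gene with reads, stood at 39.2, 11.8, 27.1 and 26.9 RPM. The equal mutants lay between the 2 controls, so that the log2 fold change of 0.30 (adjusted p = 0.818) was 1.13 without control 1 (adjusted p = 0.0172) and -0.52 without control 2 (adjusted p = 0.177). Hoxb3, of the hindbrain and neck, stood at 6.07, 1.93, 11.6 and 5.93 RPM (a log2 fold change of 1.04, adjusted p = 0.411; 1.67 without control 1, adjusted p = 0.0279, and 0.40 without control 2, adjusted p = 0.567). Hoxb3 overlaps Hoxb4 in the RefSeq annotation, so the gene behind each of these 2 amplicons is uncertain. The same holds for Hoxb2 and Hoxb3 with Hoxb3os, Hoxb6 with Hoxb5os, Hoxd4 with Hoxd3, and Hoxa6 with Hoxa3 and Hoxaas3.

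The Hoxa genes of chromosome 6 mostly overlapped between groups. Hoxa7, a gene of the thorax, stood at 44.1, 46.4, 15.2 and 35.8 RPM. Both mutants lay below both controls but mutant 1 stood well below mutant 2, and the log2 fold change was -0.92 (SE 0.43, adjusted p = 0.347), ranging from -1.51 to -0.33 when 1 library was left out. Hoxa9, also known from leukaemia, stood at 27.2, 14.1, 26.2 and 22.7 RPM (a log2 fold change of 0.30, adjusted p = 0.727) and was low in control 2 only. Hoxa10, a gene of the lower trunk, followed the same order in the controls (a log2 fold change of 0.43, adjusted p = 0.596; 0.77 without control 1 and 0.089 without control 2). Hoxa6 lay between 5.19 and 5.79 RPM in all libraries (a log2 fold change of 0.02, 95% interval -0.78 to 0.81, adjusted p = 0.984). Hoxa3 and Hoxa4 stayed at or below 0.606 RPM.

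Paralogs of 1 group did not keep a fixed ratio to each other across the libraries. Ratios of 2 amplicons within a library do not depend on how the library is scaled, and the 13 pairs of tested genes that share a number were compared. Hoxc8 over Hoxd8 was 2.71, 1.63, 9.28 and 6.55, and both mutants were above both controls by 3.65-fold in the mean ratio. Hoxb8 over Hoxd8 was 0.668, 0.747, 1.76 and 1.48. Amplicons differ in efficiency, so a ratio above or below 1 does not rank the transcripts. Hoxb8 itself had a log2 fold change of -0.01, so this ratio mostly restates the difference of Hoxd8. Hoxb4 over Hoxc4 was 2.18, 1.46, 0.981 and 0.781, the reverse order. Hoxb6 over Hoxc6 was 1.06, 0.915, 0.643 and 0.506. Each of these 4 ratios had an exact two-sided permutation p of 0.333 (adjusted p = 0.481 over 13 pairs), the smallest that 2 libraries against 2 can give. The ratios of Hoxa9 and Hoxb9 over Hoxd9 were higher in the mutants too, but rest on the few reads of Hoxd9. Hoxd9 also passed the filter only through the controls. Hoxa6 over Hoxc6 and Hoxb8 over Hoxc8 were lower in both mutants than in both controls, and Hoxc4 over Hoxd4 was higher. The groups overlapped for Hoxa6 over Hoxb6 and Hoxb4 over Hoxd4. Hoxa9 over Hoxb9 (0.694, 1.19, 0.968 and 0.843) and Hoxa7 over Hoxb7 (1.45, 1.94, 0.844 and 2.38) overlapped (exact permutation p = 1).

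**Figure D3:**
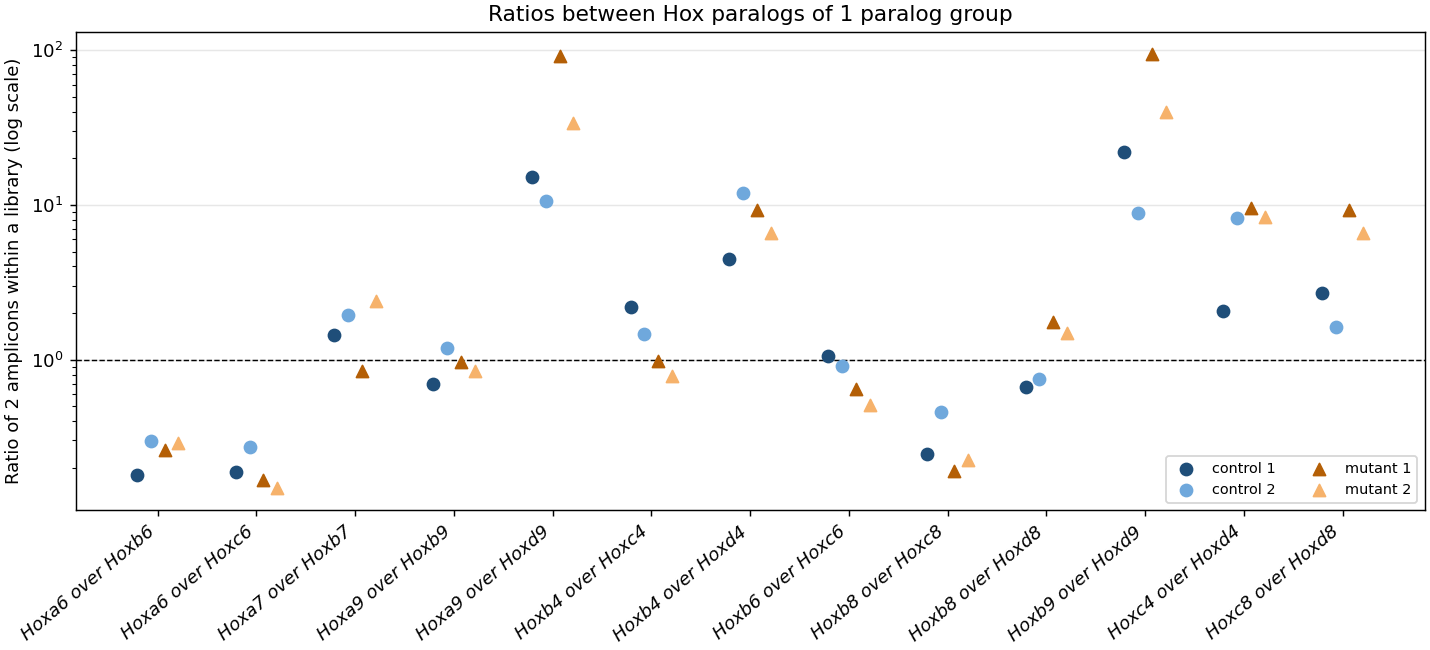
Ratio of the RPM of 2 Hox amplicons of the same paralog number within each library (log axis, dashed line at 1), for the 13 pairs of tested genes; each point is 1 library and no error bar is drawn. For Hoxb8 over Hoxd8 the controls (0.668 and 0.747) lie below 1 and the mutants (1.76 and 1.48) above it. Amplicons differ in efficiency, so the line at 1 does not rank the transcripts.

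The controls differed from each other in several Hox genes. On the RPM + 1 scale 5 of the 20 tested Hox genes (Hoxb3, Hoxb9, Hoxc11, Hoxc12 and Hoxd4) were at least 2-fold higher in control 1 than in control 2, and 0 in control 2, where 10.5% and 7.64% of all tested genes were. None reached 4-fold in either direction, past which lay 1.99% and 2.36% of all tested genes. These are single libraries, with no test. Against control 1 and against control 2 taken singly, 11 of 18 Hox genes had the same sign and 7 had opposite signs (Hoxa6, Hoxa9, Hoxb6, Hoxb8, Hoxb9, Hoxc11 and Hoxd4). Hoxc5 and Hoxd9 were not tested in both fits. Control 2 was also the library with the most macrophage and endothelial marker reads; what part this had in its lower Hox values was not tested.

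**Figure D4:**
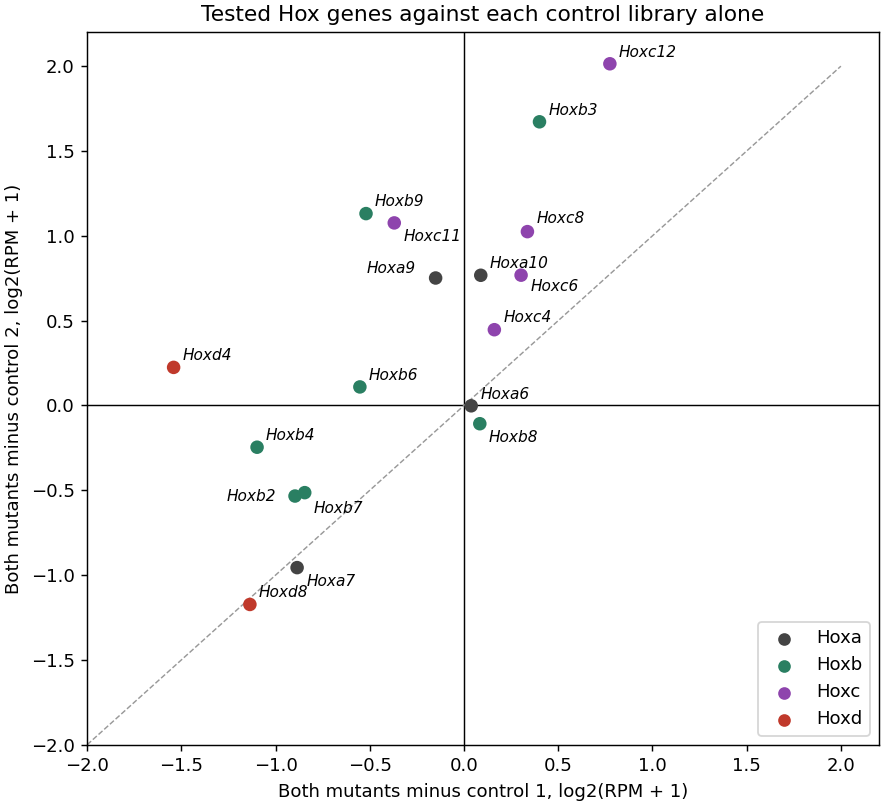
Log2(RPM + 1) of both mutants minus control 1 alone (x axis) and minus control 2 alone (y axis) for the 18 Hox genes tested in both fits, coloured by cluster; the dashed line marks equal values. Hoxd8 lies near the line at -1.14 and -1.17, while Hoxd4 (-1.54 and 0.22) and Hoxb9 (-0.52 and 1.13) change sign with the control used.

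Partners of Hox proteins did not pass either. TALE homeodomain proteins of the Pbx, Meis and Pknox families bind DNA together with Hox proteins. Of 7 tested TALE genes 0 rose and 0 fell (limma; 1.73% and 0.576% of all genes), 2 stood at an unadjusted p below 0.05 (17.9% of all genes) and 0 were called by edgeR or DESeq2, with a median log2 fold change of 0.17 against 0.08 over all genes. Pbx2 stood nearest, at 71.2, 88.2, 129 and 138 RPM (a log2 fold change of 0.74, adjusted p = 0.175). Pknox2 stood at 4.77, 2.74, 11.3 and 7.61 RPM (1.15, adjusted p = 0.234). Both were higher in both mutants than in both controls, whereas Pknox1 was lower in both, at 25.9, 30, 21 and 21 RPM (-0.39, adjusted p = 0.47). Without control 1 the log2 fold change was 0.59 for Pbx2 and 1.46 for Pknox2. Without control 2 it was 0.90 and 0.83.

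Polycomb proteins keep Hox genes silent and trithorax proteins keep them active. Of 29 tested genes of both systems and related regulators (Ctcf among them) 0 rose and 0 fell (limma, against the same 1.73% and 0.576%). At an unadjusted p below 0.05 stood 2 (17.9% of all genes) and 0 were called by edgeR or DESeq2, with a median of 0.19. Phc1, of a Polycomb complex, stood at 8.56, 7.86, 18.8 and 16.8 RPM (log2 fold change 1.03 with SE 0.28, adjusted p = 0.163). Phc3 stood at 70.4, 57.7, 106 and 97.9 RPM (0.67, adjusted p = 0.208). Phc2 stood at 59.6, 98.7, 42.7 and 50.4 RPM (-0.71, adjusted p = 0.314), and the trithorax gene Kmt2d at 113, 62.8, 145 and 138 RPM (0.74, adjusted p = 0.315). These 4 genes were chosen as the smallest p of the list, so they do not stand for its other members. In the order given, their log2 fold changes were 1.08, 0.81, -1.07 and 1.16 without control 1. Without control 2 they were 0.97, 0.53, -0.36 and 0.33.

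Among 25 tested positional factors outside the Hox clusters 2 rose, 0 fell and 23 did not pass (limma; 1.73% of all genes rose and 0.576% fell). At an unadjusted p below 0.05 stood 9 of the 25, against 17.9% of all genes, and the median log2 fold change was 0.19. Among these 9 is Lhx9, which passed the filter only through the mutants. Tbx2, a T-box gene of limb and organ patterning, stood at 2.76, 1.85, 16.3 and 30.6 RPM (log2 fold change 2.83 with SE 0.42, limma adjusted p = 0.0456). Pitx1, which marks the hindlimb in the embryo, stood at 1.9, 0.964, 11.9 and 20.2 RPM (2.79, SE 0.42, adjusted p = 0.0462). Both mutants were above both controls in both genes. Tbx2 kept its call in 8 of 13 alternatives, among them DESeq2 (adjusted p = 2.6e-07) and limma without control 1 or control 2. It missed the threshold with a pseudocount of 5 (0.0519), no filter (0.105), in edgeR (0.0578) and without mutant 1 or mutant 2. Its log2 fold change lay between 1.91 and 3.27 in all 13. Pitx1 likewise kept its call in 8 of 13, among them DESeq2 (adjusted p = 1.9e-06) and limma without control 1 or control 2. It missed with a pseudocount of 0.5 (0.0511), no filter (0.118), in edgeR (0.0653) and without mutant 1 or mutant 2. Its log2 fold change lay between 1.69 and 3.41. Without 1 control limma called many more genes of the table, and without 1 mutant none, so these fits say little about a single gene. Of the controls only control 1 reached 1 RPM of Pitx1, so its entry to the test needed a mutant library.

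Next came Lhx9, a LIM homeobox gene of limb and gonad, at 0.108, 0.445, 4.3 and 4.92 RPM (a log2 fold change of 2.15, adjusted p = 0.058). It reached 1 RPM only in the mutants, so the filter fixed its direction in advance and its p is no support for a rise. En1, a homeobox gene of ventral limb and dermis, stood at 21.9, 29.1, 60.6 and 66.6 RPM (1.30, adjusted p = 0.0794). DESeq2 called both Lhx9 and En1, with the same limit for Lhx9. It also called Alx4 as higher and Nr2f1 as lower. Of the 9 positional factors at an unadjusted p below 0.05 in limma, Nr2f1 and Meox2 were lower in the mutants and the others higher. Nr2f1 stood at 27.9, 17.9, 5.96 and 7.48 RPM (-1.61, limma adjusted p = 0.102). Meox2 stood at 10.7, 9.79, 2.06 and 4.65 RPM (-1.43, limma adjusted p = 0.175). Tbx5, a forelimb gene, stood at 55.6, 11.3, 25 and 19.6 RPM and Tbx4, a hindlimb gene, at 2.28, 0.297, 0 and 0 RPM (both chosen after their values were seen). Of 6 noncoding RNAs of the Hox clusters with a row only Hotairm1 was tested, at 3.63, 5.34, 3.49 and 2.09 RPM (-0.54, adjusted p = 0.526). The Cdx1, Cdx2 and Evx1 amplicons had no read in any library.

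**Figure D5:**
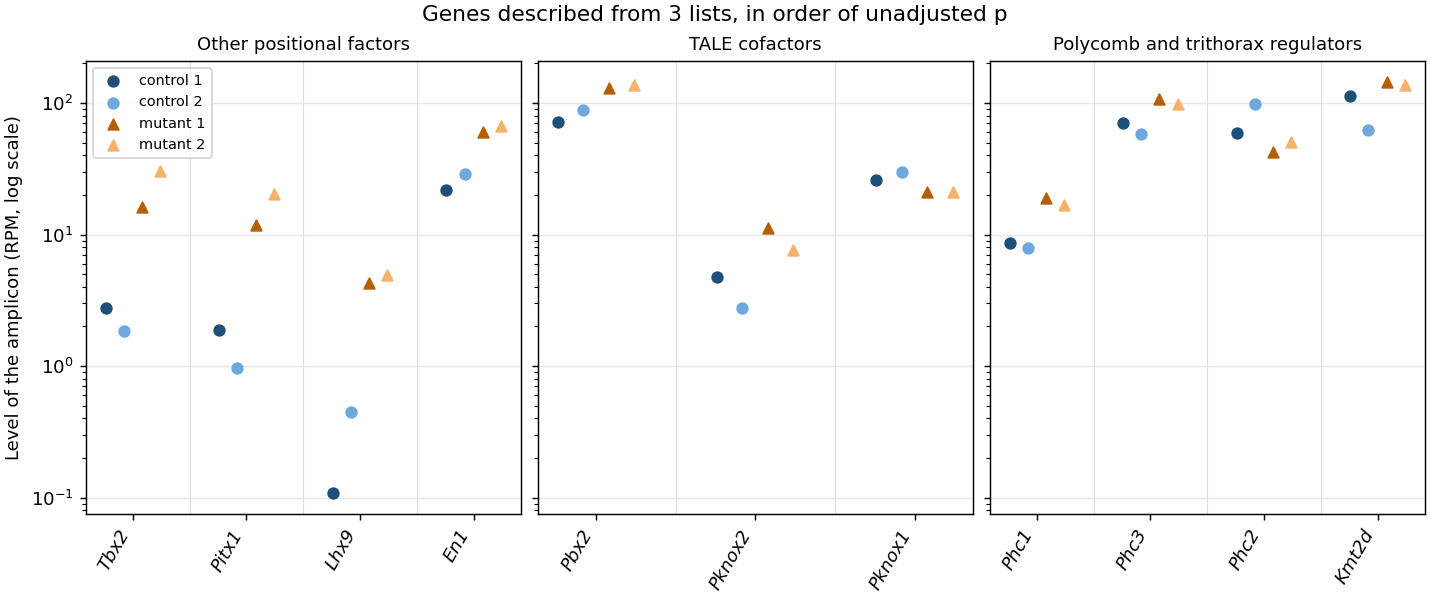
Level in RPM (log axis) of 11 of the genes described from 3 lists (positional factors, TALE, and Polycomb and trithorax). Genes are in order of unadjusted p within each list, with 1 point per library and no error bar. Tbx2 (controls 1.85 and 2.76 RPM, mutants 16.3 and 30.6 RPM) and Pitx1 are the 2 that passed the limma threshold.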

How the data were processed

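The authors' deposited table gives RPM per amplicon from an Ion AmpliSeq Transcriptome Mouse panel, per the labels' protocols; no aligner, counter or build is named in the sources used here. RPM values are shares of a library, so that a gene taking more reads lowers all others. Symbols were taken from amplicon names. The steps between values gave whole reads for 100% of non-zero values (within 0.01 read), with 18455811, 13483518, 17460018 and 14847959 reads.

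A gene entered the test when 2 or more libraries had at least 1 RPM, and was fitted with limma 3.58.1 in R 4.3.3 (trend, log2(RPM + 1), two-sided, Benjamini-Hochberg). Log2 fold changes are on this scale and understate changes of low genes. Alternatives, listed in the closing section, included edgeR 4.0.16 and DESeq2 1.42.0 on whole reads; tests were checked on simulated data. Of the 30 Hox genes with a row, 10 did not reach the filter. Every Hox gene at 1 RPM or more is named, and of each other list the 4 smallest p, except 1 gene not reported here. Members, lists and rule were chosen with earlier results of these data known. Strand is not stated, and 8 of the 30 Hox genes overlap another gene of their cluster (RefSeq). Python 3.11.15, pandas 2.3.3 and matplotlib 3.10.9 were used.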

Additional observations from a re-analysis of the deposited data

How the results depend on the processing

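Results were recomputed with pseudocounts of 0.5 and 5, without a filter, with a filter at 5 RPM, with TMM and median-of-ratios scaling, with the replicate number as a block, in edgeR and DESeq2, and without each library. Over all genes, 201 were higher and 67 lower. These counts became 56 and 18 with no filter, 66 and 27 in edgeR, 598 and 493 in DESeq2, and 0 to 1731 and 0 to 854 when 1 library was left out. The labels number both groups 1 and 2, and with the replicate block 301 were higher and 123 lower. No source says that a number marks a shared animal or day. Same-numbered libraries deviated from their group means with r = 0.16 across 11638 genes. The block gave no Hox call (Hoxd8 adjusted p = 0.114). Hox calls were 0 higher and 0 lower, except 1 lower in DESeq2, and 0 to 4 higher and 0 to 3 lower when 1 library was left out. For the TALE, Polycomb and positional lists together the 2 higher calls became 1 with either pseudocount, 0 with no filter or in edgeR, 5 in DESeq2 and 0 to 15 with 1 library left out. The 0 lower calls became 1 in DESeq2 and 0 to 6 with 1 library left out. Genes 4-fold apart between the controls numbered 232 and 275, and 102 and 115 with a pseudocount of 5.

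Of 251 alternative values for single Hox genes, 229 kept their direction and side of the threshold, 9 passed it and 13 turned direction. Hoxa6 turned to -0.035 (TMM), -0.054 (median of ratios and edgeR) and -0.067 (DESeq2). With 1 library left out the ranges that crossed 0 were -0.049 to 0.085 for Hoxa6, -0.15 to 0.75 for Hoxa9, -0.55 to 0.11 for Hoxb6, -0.11 to 0.084 for Hoxb8, -0.52 to 1.13 for Hoxb9, -0.37 to 1.08 for Hoxc11 and -1.54 to 0.22 for Hoxd4. The median over all genes shifted from 0.08 to -0.02 in edgeR and -0.03 in DESeq2. In limma it was 0.025 with TMM scaling and 0.003 with median-of-ratios scaling. The cause of these changes was not tested. At thresholds chosen after seeing the data, 20, 20, 21 and 22 Hox genes reached 0.5 RPM and 16, 14, 15 and 16 reached 5 RPM. Values below about 0.2 RPM rest on 3 reads or fewer, so that low Hox genes cannot be compared between groups at this depth.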
